A study of Homo sapiens with 18 samples.

Results

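The genes of DNA damage signalling and repair described here were listed by name, 35 in all, from recombination, the Fanconi anemia pathway, break sensing and the checkpoint, end joining and mismatch repair, and 31 of these 35 could be measured among 22465 named genes. BRCA2, FANCA and FANCD2 are not in the annotation used, and the probe set of RAD54B carries several gene symbols, so these 4 genes are not analysed here. The genes are given by name, with 1 probe set per measured gene. They were chosen with earlier results of these data known. Their shares beside those of all genes are thus descriptions and no test of the list. RNA was measured on 18 whole-transcriptome microarrays, 3 in each of 6 groups, from 2 established human plasma cell tumour lines. JJN3, labelled plasma cell leukemia, was given amiloride at 0.4 mM, TG003 at 0.4 mM or the solvent DMSO. KMS12-BM, labelled multiple myeloma, was given amiloride at 0.1 mM, TG003 at 0.4 mM or DMSO. Exposure lasted 24 h in all groups, in RPMI medium whose serum share differs between the lines. Amiloride, a diuretic, blocks sodium channels of epithelia, and TG003 inhibits CLK kinases, which act on splicing factors.

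Cells meet broken DNA with sensors and kinases that halt the cell cycle, and then rejoin the ends directly or copy the lost sequence from a sister strand by homologous recombination. The Fanconi pathway unhooks crosslinks between the strands: a core complex attaches ubiquitin to the FANCI and FANCD2 pair, and BRCA1, PALB2 and BRCA2 take part in the recombination that follows. Plasma cell tumours carry immunoglobulin translocations that arise from DNA breaks, and some drugs used against them damage DNA.

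Values are log2 intensities, in which 1 unit is a 2-fold step, and a change is a difference of group means ± SE with n = 3 arrays per group. All adjusted p-values come from limma, adjusted by Benjamini-Hochberg across the 22465 genes, and a gene was called where this was under 0.05. The labels do not tell whether arrays of a group came from separate cultures, so the p-values may reflect technical spread alone. Arrays of a group correlated at 0.9955 to 0.9984 across genes. The background reference is 6.87, the level that 95% of ERCC control probe sets stay below, and 29 of the 31 repair genes lay above it in at least 1 group, while FANCC and FANCE did not. Of 10 plasma cell markers, 6 or 7 lay above it in each group, against 0 of 8 T and NK cell, 0 of 8 myeloid and 0 of 7 stromal and endothelial markers. The cell line field of the third KMS12-BM amiloride array reads JJN3, but across genes it correlated at 0.998, on average, with its KMS12-BM counterparts and at 0.932 with those of JJN3 under amiloride. In RNA from bulk cells, fewer cells with a transcript and less of it per cell cannot be told apart.

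Amiloride lowered 15 of the 31 repair genes in KMS12-BM and raised 6. Fanconi genes fell in 6 of 9 cases, recombination genes in 4 of 10, and break sensing and checkpoint genes divided evenly, with 3 lower and 3 higher of 8. Of the falls, 6 were at least 2-fold, among them those of the helicase BRIP1 and the ubiquitinated FANCI, and 1 rise was, that of the break sensor RAD50. FANCL also had a difference of means past 2-fold, but its amiloride arrays lay below the background reference and bound the fall at 1.82-fold only. Of all genes, 13.6% were called lower and 17% higher, against 48.4% and 19.4% of the repair genes. Among the 8536 genes above the background reference, 25.5% were called lower and 37.2% higher, against 14 and 6 of the 29 repair genes above it. The median change was -0.21 over the repair genes and -0.02 over all genes. All 3 arrays of one group lay beyond all 3 of the other for each of the 21 called genes. The same held for each called repair gene in the other comparisons between groups, so this adds nothing to the calls.

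**Figure D1:**
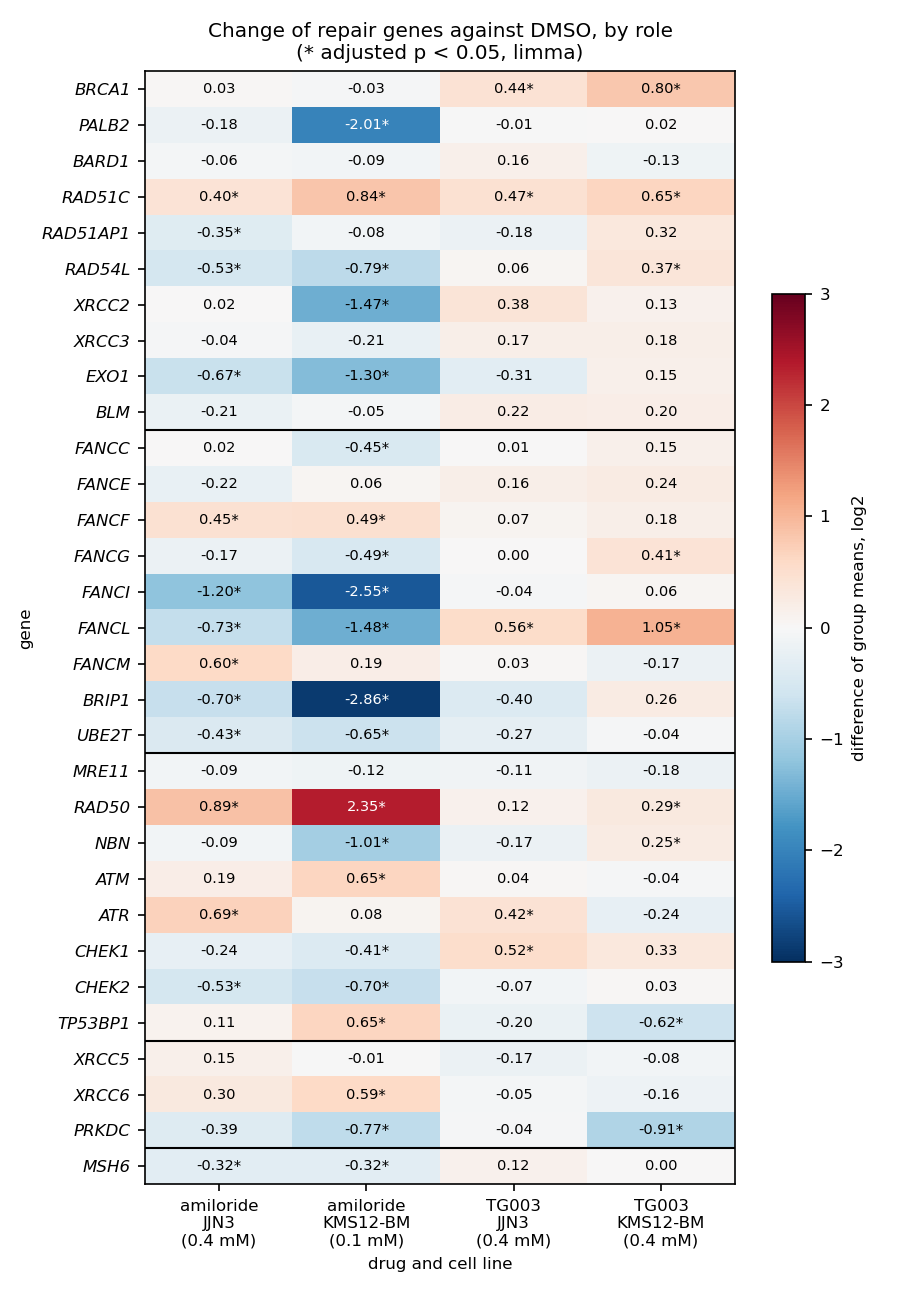
Difference of group means (log2) for the 31 measured repair genes against DMSO, with genes in rows grouped by role and drug and line in columns. The color and the printed value give the change, an asterisk marks an adjusted p under 0.05 in limma, and the strongest colors are those of BRIP1 at -2.86, FANCI at -2.55 and RAD50 at 2.35, all with amiloride in KMS12-BM, where the BRIP1 arrays lay below the background reference.

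BRIP1, a helicase that partners BRCA1 and is also known as FANCJ, had values of 6.28, 6.21 and 6.02 in KMS12-BM amiloride arrays, against 9.18, 9.20 and 8.73 in KMS12-BM DMSO arrays. All 3 amiloride values lay below the background reference, so the change of -2.86 ± 0.13 (adjusted p = 3.8e-10) is given as at least 4.50-fold lower.

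FANCI, which the core complex marks with ubiquitin together with FANCD2, had 8.71, 8.91 and 8.53 with amiloride, against 11.35, 11.31 and 11.15 with DMSO in KMS12-BM. The groups stood over 2 units apart, and both were well above the background reference. The change was -2.55 ± 0.13 (adjusted p = 1.1e-09). FANCL, the ubiquitin ligase of the core complex, had 6.37, 6.32 and 6.07 with amiloride, against 7.67, 7.82 and 7.70 with DMSO. Its amiloride arrays were below the reference, and the fall of -1.48 ± 0.09 (adjusted p = 4.2e-09) is at least 1.82-fold. UBE2T, the ubiquitin-conjugating enzyme that works with FANCL, averaged 9.52 ± 0.24 in KMS12-BM amiloride arrays and 10.17 ± 0.17 in KMS12-BM DMSO arrays (SD, n = 3 each), a change of -0.65 ± 0.11 (adjusted p = 0.00025). The conjugating enzyme, the ligase and the substrate of that step thus each passed the test in the same direction.

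Other core complex genes moved less. FANCG changed by -0.49 ± 0.09 (adjusted p = 0.00057), with 7.10, 7.30 and 7.11 in KMS12-BM amiloride arrays against 7.70, 7.53 and 7.75 in KMS12-BM DMSO arrays. FANCC changed by -0.45 ± 0.07 (adjusted p = 4.7e-05), but all its arrays lay below the reference, so no fold is given. FANCF, the exception among them, rose by 0.49 ± 0.13 (adjusted p = 0.0073), a call that ended when the arrays were quantile normalized once more (adjusted p = 0.097). FANCE at 0.06 and FANCM, the translocase that anchors the core complex, at 0.19 did not pass.

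Among recombination genes PALB2, which bridges BRCA1 and BRCA2, had the largest difference of means. It had 7.49, 7.41 and 7.07 in KMS12-BM amiloride arrays, against 9.31, 9.50 and 9.20 in KMS12-BM DMSO arrays. The change was -2.01 ± 0.12, or 4.03-fold lower (adjusted p = 3.3e-09). BRCA1 itself had 10.32, 10.28 and 10.14 with amiloride, against 10.27, 10.42 and 10.13 with DMSO. Its groups overlapped, and the difference of -0.03 ± 0.11 did not pass (adjusted p = 0.88). Its partner BARD1 at -0.09 also did not pass.

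XRCC2 and RAD51C, whose proteins act in homologous recombination, moved in opposite directions. XRCC2 had 10.77, 10.49 and 10.30 in KMS12-BM amiloride arrays, against 11.94, 11.92 and 12.11 in KMS12-BM DMSO arrays, a change of -1.47 ± 0.15 (adjusted p = 9.8e-07). RAD51C had 8.88, 9.19 and 8.97 with amiloride, against 8.14, 8.33 and 8.04 with DMSO, a change of 0.84 ± 0.09 (adjusted p = 1.4e-06). XRCC3 at -0.21 did not pass. EXO1, a nuclease that resects broken ends, had 10.06, 10.28 and 9.99 with amiloride, against 11.46, 11.55 and 11.21 with DMSO, and fell by 1.30 ± 0.12 on the log2 scale (adjusted p = 2.7e-07). RAD54L, a motor protein that aids strand invasion, had 6.12, 6.39 and 6.16 with amiloride, all below the background reference, against 7.02, 7.12 and 6.91 with DMSO, a fall that is bounded at 1.11-fold or more (adjusted p = 4.1e-05). The helicase BLM at -0.05 and RAD51AP1 at -0.08 did not pass.

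**Figure D2:**
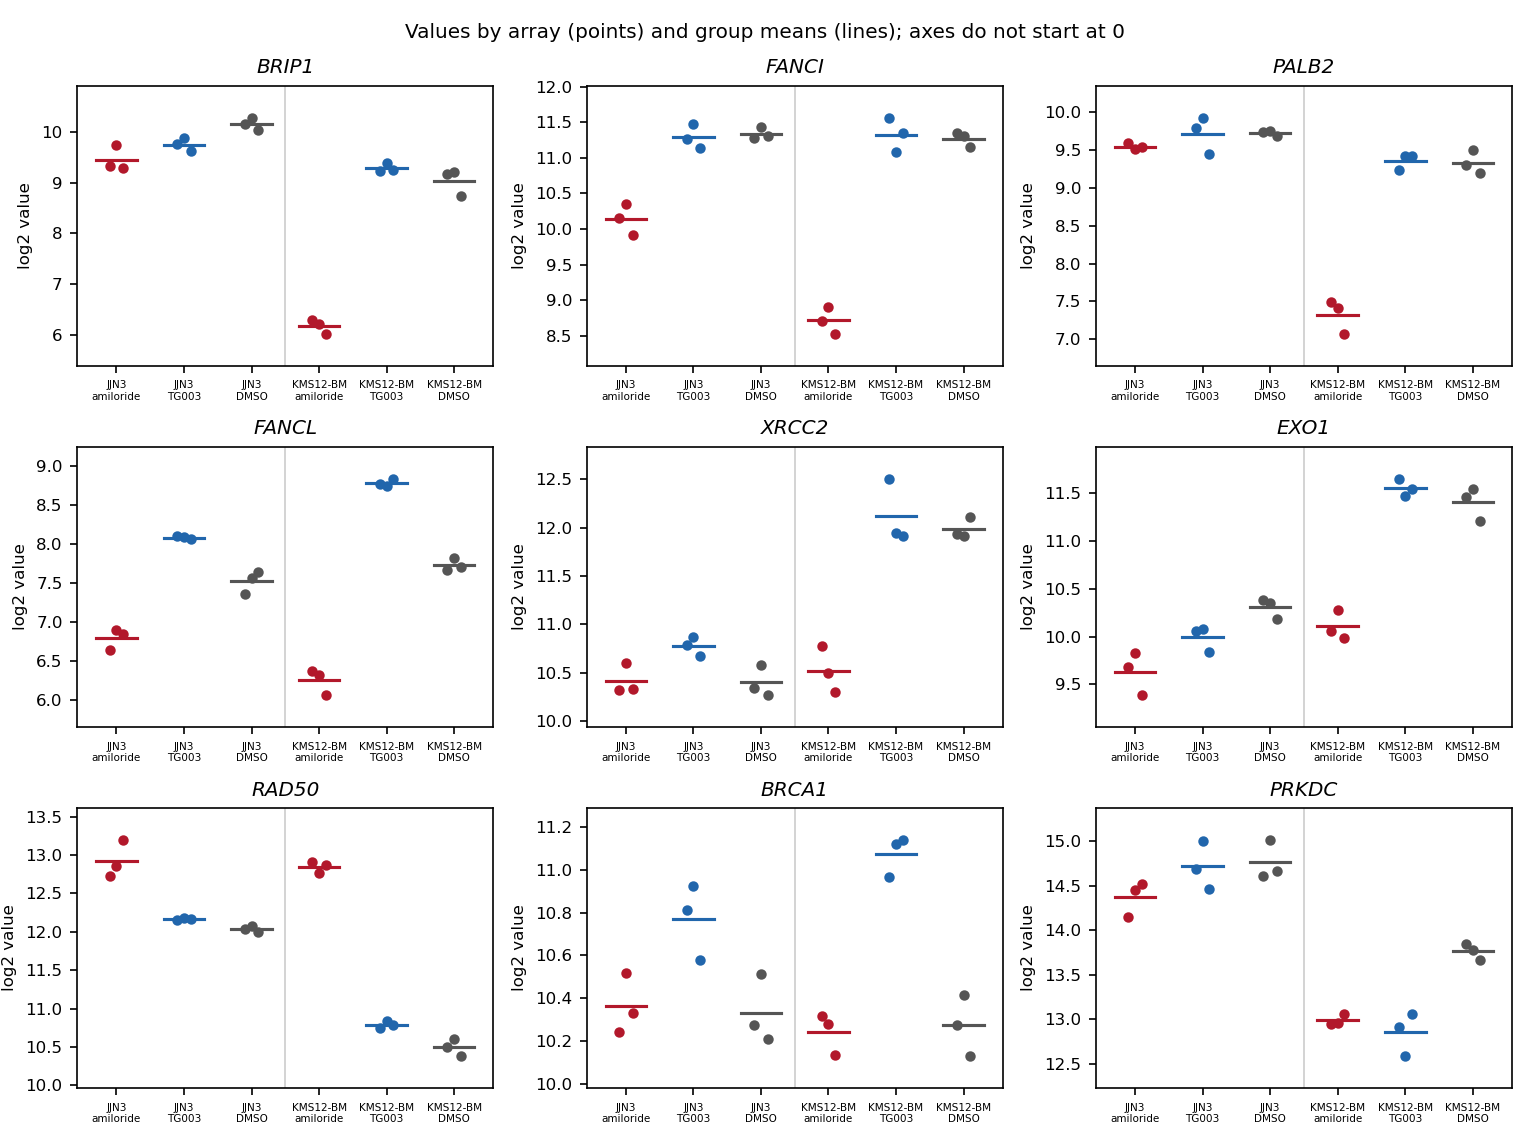
Log2 value of 9 repair genes on each of the 18 arrays (points) with the group mean (line), with JJN3 on the left and KMS12-BM on the right of each panel and amiloride, TG003 and DMSO in that order. In KMS12-BM the amiloride arrays of PALB2 lie between 7.07 and 7.49, below all other arrays, while in JJN3 its amiloride arrays lie between 9.52 and 9.59.

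The promoters of 5 genes called lower with amiloride in KMS12-BM are printed here. They were taken by the most negative difference of means among genes with a RefSeq entry. The places of BRIP1 and FANCL in that order are not established, since their amiloride arrays lay below the background reference. With amiloride in JJN3, PALB2 at -0.18 and XRCC2 at 0.02 were not called, so the 5 genes did not all fall there. The table used, of build GRCh38.p14, gives 250 bases before to 50 after each start and holds 27 of the 31 measured genes. FANCI is not matched in it. Capitals mark the words searched on both strands: TTTGGCGC, TTTCGCGC, TTTCCCGC and TTTGCCGC, as E2F factors recognise, TTTGAA and TTCGAA, as in the cell cycle element called CHR, and CCAAT. The windows lie at chr17:61863479-61863778 on the minus strand for BRIP1, chr16:23641261-23641560 on the minus strand for PALB2, chr2:58241276-58241575 on the minus strand for FANCL, chr7:152676092-152676391 on the minus strand for XRCC2 and chr1:241847954-241848253 on the plus strand for EXO1.
BRIP1: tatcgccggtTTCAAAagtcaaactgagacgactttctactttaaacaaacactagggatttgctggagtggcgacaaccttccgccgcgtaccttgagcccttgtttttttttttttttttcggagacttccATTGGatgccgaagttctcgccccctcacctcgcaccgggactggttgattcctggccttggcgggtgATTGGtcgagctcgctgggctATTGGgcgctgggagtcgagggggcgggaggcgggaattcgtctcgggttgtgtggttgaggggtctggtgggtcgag
PALB2: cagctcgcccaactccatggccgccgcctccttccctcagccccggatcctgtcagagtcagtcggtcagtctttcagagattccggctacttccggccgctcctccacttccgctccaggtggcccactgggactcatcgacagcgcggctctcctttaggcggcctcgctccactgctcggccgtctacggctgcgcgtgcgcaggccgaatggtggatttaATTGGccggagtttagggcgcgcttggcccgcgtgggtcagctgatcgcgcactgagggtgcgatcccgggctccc
FANCL: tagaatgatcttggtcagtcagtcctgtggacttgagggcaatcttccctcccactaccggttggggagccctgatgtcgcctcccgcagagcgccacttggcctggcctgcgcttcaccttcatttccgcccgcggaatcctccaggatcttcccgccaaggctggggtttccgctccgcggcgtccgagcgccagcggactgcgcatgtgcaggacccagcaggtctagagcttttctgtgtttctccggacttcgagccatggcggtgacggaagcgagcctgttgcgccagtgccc
XRCC2: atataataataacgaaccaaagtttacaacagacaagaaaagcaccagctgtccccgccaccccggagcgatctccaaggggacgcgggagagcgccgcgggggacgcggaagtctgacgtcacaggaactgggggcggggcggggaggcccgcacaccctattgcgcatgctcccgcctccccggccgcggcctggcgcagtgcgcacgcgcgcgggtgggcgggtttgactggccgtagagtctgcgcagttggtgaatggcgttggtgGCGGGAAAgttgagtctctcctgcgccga
EXO1: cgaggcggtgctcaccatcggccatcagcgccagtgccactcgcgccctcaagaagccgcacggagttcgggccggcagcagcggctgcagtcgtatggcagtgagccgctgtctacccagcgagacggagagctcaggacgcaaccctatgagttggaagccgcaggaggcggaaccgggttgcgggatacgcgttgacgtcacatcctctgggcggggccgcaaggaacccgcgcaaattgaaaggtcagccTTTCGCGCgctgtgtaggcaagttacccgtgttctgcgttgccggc

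BRIP1 holds 3 CCAAT words, seen as ATTGG, and 1 CHR-type word, PALB2 holds 1 CCAAT word, and XRCC2 and EXO1 hold 1 E2F-type word each. FANCL holds none of them, nor does a second listed start of EXO1. An E2F-type word stood in 5 of the 27 promoters (18.5%), against 3.99% of 27305 genes in the table, and in 4 of the 12 that belong to genes called lower and 1 of the 6 that belong to genes called higher with amiloride in KMS12-BM. A CCAAT word stood in 17 of 27 (63.0%), against 39.7% of all genes, and in 7 of these 12 (58.3%) and 4 of these 6 (66.7%). A CHR-type word stood in 4 of 27 (14.8%), against 19.5% of all genes, and in 3 of these 12 and 1 of these 6. These words overlap no other in the windows printed. A match is a description of letters and not a bound site, and the absence of one covers only these words in this window.

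RAD50, the coiled-coil ATPase of the complex with MRE11 and NBN that holds broken ends, had 12.91, 12.77 and 12.87 in KMS12-BM amiloride arrays, against 10.50, 10.61 and 10.39 in KMS12-BM DMSO arrays. The groups lay over 2 units apart. The change of 2.35 ± 0.09 was 5.10-fold higher (adjusted p = 7.3e-11). NBN, which recruits ATM to that complex, went the other way, with 10.27, 10.11 and 10.13 with amiloride, against 11.23, 11.19 and 11.13 with DMSO, a change of -1.01 ± 0.08 (adjusted p = 6.8e-08). MRE11, the nuclease of the complex, changed by -0.12 and did not pass, so RAD50 and NBN were called in opposite directions and MRE11 was not called.

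Of the kinases, ATM, which answers double-strand breaks, had 10.31, 10.07 and 10.17 in KMS12-BM amiloride arrays, against 9.60, 9.63 and 9.38 in KMS12-BM DMSO arrays, a change of 0.65 ± 0.13 (adjusted p = 0.001). ATR, which answers exposed single-stranded DNA, had 8.80, 8.80 and 8.74 with amiloride, against 8.69, 8.82 and 8.58 with DMSO. Its groups overlapped and the difference of 0.08 ± 0.11 did not pass. CHEK1, the kinase that ATR activates, had 11.82, 12.02 and 11.79 with amiloride, against 12.26, 12.49 and 12.12 with DMSO, a change of -0.41 ± 0.11 (adjusted p = 0.0063). CHEK2, the kinase that ATM activates, had 8.42, 8.38 and 8.20 with amiloride, against 9.05, 9.19 and 8.87 with DMSO, a change of -0.70 ± 0.10 (adjusted p = 5.1e-05). Both effector kinases were lower on every amiloride array than on any DMSO array. TP53BP1, which shields ends from resection, had 8.34, 8.47 and 8.68 with amiloride, against 7.81, 7.93 and 7.79 with DMSO, a change of 0.65 ± 0.08 (adjusted p = 9.3e-06).

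The end-joining genes differed among themselves in KMS12-BM. PRKDC, the catalytic subunit of the DNA-dependent kinase, had 12.94, 12.96 and 13.06 with amiloride, against 13.84, 13.77 and 13.67 with DMSO, and changed by -0.77 ± 0.15 (adjusted p = 0.00052). XRCC6, one Ku subunit that binds broken ends, had 13.22, 13.70 and 13.40 with amiloride, against 12.91, 12.95 and 12.68 with DMSO, and changed by 0.59 ± 0.11 (adjusted p = 0.0006). XRCC5, the other Ku subunit, had 14.14, 14.12 and 14.00 with amiloride, against 14.13, 14.15 and 14.01 with DMSO. Its groups overlapped and the difference of -0.01 ± 0.07 did not pass. MSH6, which takes part in recognising mismatches, had 9.32, 9.43 and 9.26 with amiloride, against 9.67, 9.79 and 9.53 with DMSO, a change of -0.32 ± 0.08 (adjusted p = 0.004).

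Genes that follow the cell cycle were measured beside these, since many repair genes vary with it. Of 12 proliferation markers, 6 were lower and 1 higher with amiloride in KMS12-BM, with a median change of -0.35. For all genes these shares were 13.6% and 17%, and for those above the background reference 25.5% and 37.2%. RRM2, a subunit of ribonucleotide reductase, changed by -2.98 and the transcription factor gene E2F2 by -1.55, the cyclin gene CCNE2 was at least 4.20-fold lower, with its amiloride arrays below the background reference, while TOP2A rose by 0.40 and MKI67 at 0.23 did not pass (adjusted p = 0.4). In JJN3, where 6.12% of all genes were called lower, amiloride lowered 3 of the 12, with a median change of -0.28. Their part in the repair gene changes was not tested.

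In JJN3, amiloride at 0.4 mM lowered 9 of the 31 repair genes and raised 5. Of all genes, 6.12% were called lower and 8.65% higher, against 29.0% and 16.1% of the repair genes. Above the background reference 14.3% of genes were called lower and 22.3% higher, against 10 and 5 of 29 repair genes. The median change was -0.09 over the repair genes and -0.02 over all genes. Fanconi genes again had the most falls, 4 of 9, with 2 rises.

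FANCI had 10.16, 10.35 and 9.92 in JJN3 amiloride arrays, against 11.27, 11.44 and 11.31 in JJN3 DMSO arrays. This change of -1.20 ± 0.13 (adjusted p = 2.3e-05) was the only difference of means of the list past 2-fold in this line. FANCL had 6.64, 6.90 and 6.85 with amiloride, against 7.36, 7.56 and 7.64 with DMSO, a change of -0.73 ± 0.09 (adjusted p = 5.2e-05), and 2 of its 3 amiloride arrays lay below the background reference. BRIP1 had 9.32, 9.75 and 9.29 with amiloride, against 10.15, 10.27 and 10.03 with DMSO, a change of -0.70 ± 0.13 (adjusted p = 0.0019). UBE2T changed by -0.43 ± 0.11 (adjusted p = 0.016), so the conjugating enzyme, ligase and substrate passed in JJN3 as well. Without the third JJN3 DMSO array or the third JJN3 amiloride array the UBE2T call ended, with adjusted p-values of up to 0.08. FANCM had 7.77, 8.04 and 8.05 with amiloride, against 7.35, 7.42 and 7.26 with DMSO, and rose by 0.60 ± 0.12 (adjusted p = 0.0027).

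RAD50 had 12.73, 12.86 and 13.19 in JJN3 amiloride arrays, against 12.04, 12.07 and 12.00 in JJN3 DMSO arrays, a change of 0.89 ± 0.09 (adjusted p = 1.3e-05). ATR had 9.58, 9.71 and 10.06 with amiloride, against 9.17, 9.15 and 8.99 with DMSO, a change of 0.69 ± 0.11 (adjusted p = 0.00041). Both were higher on each amiloride array than on any DMSO array. CHEK2 had 7.91, 7.97 and 7.80 with amiloride, against 8.36, 8.58 and 8.34 with DMSO, a change of -0.53 ± 0.10 (adjusted p = 0.0022). CHEK1 had 11.97, 11.95 and 11.70 with amiloride, against 12.14, 12.18 and 12.03 with DMSO, and its difference of -0.24 ± 0.11 did not pass (adjusted p = 0.17). ATM at 0.19, NBN at -0.09, MRE11 at -0.09 and TP53BP1 at 0.11 did not pass either.

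Of the recombination genes in JJN3, EXO1 had 9.68, 9.83 and 9.39 with amiloride, against 10.38, 10.35 and 10.19 with DMSO, a change of -0.67 ± 0.12 (adjusted p = 0.00087). RAD54L had 7.66, 7.77 and 7.22 with amiloride, against 8.07, 8.09 and 8.07 with DMSO, a change of -0.53 ± 0.12 (adjusted p = 0.0049). RAD51C rose by 0.40 ± 0.09 (adjusted p = 0.0054). RAD51AP1, which promotes strand pairing, changed by -0.35 ± 0.11 (adjusted p = 0.042), a call that ended in 10 of the 18 fits that left out 1 array. BRCA1, PALB2 and XRCC2 at 0.03, -0.18 and 0.02 did not pass.

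The end-joining genes did not pass in JJN3. PRKDC had 14.15, 14.46 and 14.52 with amiloride, against 14.61, 15.01 and 14.66 with DMSO, a difference of -0.39 ± 0.15 (adjusted p = 0.097). XRCC6 had 13.56, 13.48 and 13.43 with amiloride, against 13.25, 13.25 and 13.07 with DMSO, a difference of 0.30 ± 0.11 (adjusted p = 0.099). XRCC5 had 14.14, 14.09 and 14.18 with amiloride, against 14.10, 14.01 and 13.84 with DMSO, a difference of 0.15 ± 0.07 (adjusted p = 0.23). The XRCC6 and PRKDC arrays of the groups did not overlap, whereas those of XRCC5 did. MSH6 had 8.49, 8.51 and 8.43 with amiloride, against 8.83, 8.88 and 8.66 with DMSO, a change of -0.32 ± 0.08 (adjusted p = 0.011). Without the second JJN3 DMSO array the MSH6 call ended (adjusted p = 0.059), and that of FANCF, at 0.45 ± 0.13 (adjusted p = 0.028), ended without the first or second JJN3 DMSO array or the second or the third JJN3 amiloride array, with adjusted p-values of up to 0.13.

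In all, 8 genes were lower with amiloride in both lines, namely FANCI, FANCL, BRIP1, UBE2T, EXO1, RAD54L, CHEK2 and MSH6, which are 8 of 9 called lower in JJN3 and 8 of 15 in KMS12-BM. RAD51C, FANCF and RAD50 were higher in both, which are 3 of 5 in JJN3 and 3 of 6 in KMS12-BM. None was called in opposite directions (0 genes in limma). The share of all genes called alike in both lines was not counted, so these counts stand without that comparison. The JJN3 calls of UBE2T, MSH6 and FANCF ended when certain single arrays were left out. Across the 31 genes the 2 sets of changes correlated at Pearson's r = 0.80 and Spearman's rho = 0.79, a description over genes that share arrays and normalization.

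The response to amiloride differed between the lines for 12 of the 31 genes by an interaction term in limma, 9 with a higher and 3 with a lower change in JJN3. Of all genes, 8.68% and 9.78% were called in those directions, and of genes above the background reference 19.1% and 22.9%, against 8 and 3 of 29 repair genes. BRIP1 differed by 2.16 ± 0.19 (adjusted p = 1.5e-06), with changes of -0.70 in JJN3 and -2.86 in KMS12-BM, where its amiloride arrays lay below the background reference. PALB2 differed by 1.83 ± 0.17 (adjusted p = 2.2e-06), with -0.18 in JJN3 and -2.01 in KMS12-BM. XRCC2 differed by 1.48 ± 0.21 (adjusted p = 0.00012), with 0.02 in JJN3 and -1.47 in KMS12-BM. RAD50 differed by -1.46 ± 0.13 (adjusted p = 1.6e-06), with 0.89 in JJN3 and 2.35 in KMS12-BM. BRIP1 was called lower in both lines and fell further in KMS12-BM, where RAD50 rose further. PALB2 and XRCC2 were called lower in KMS12-BM only. The dose of amiloride was 4 times as high in JJN3, so line and dose cannot be told apart in these differences.

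**Figure D3:**
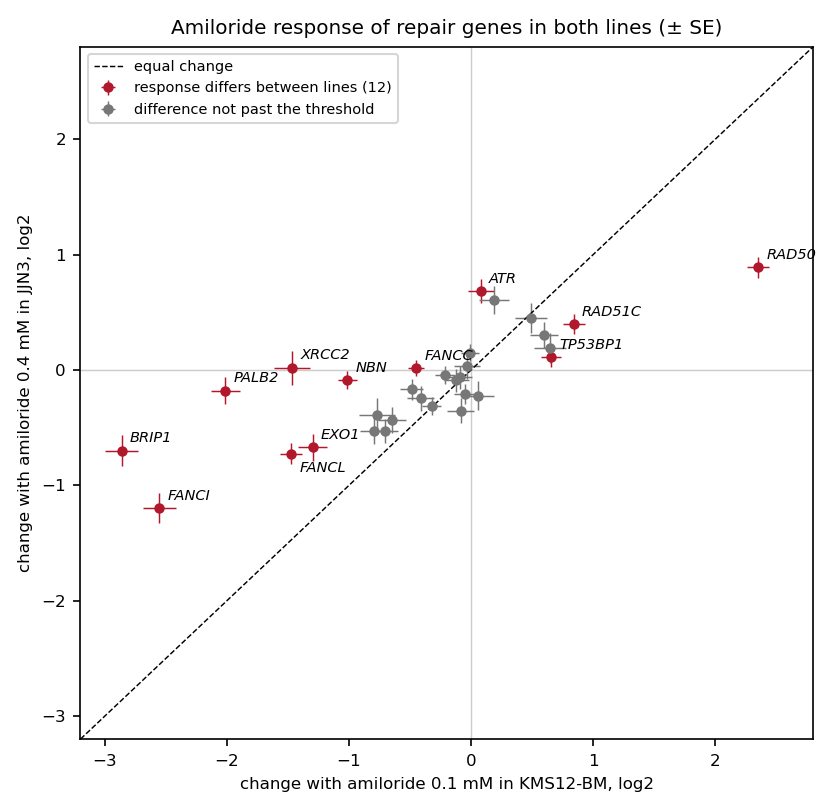
Change with amiloride against DMSO (log2, points with SE) in JJN3 on the vertical axis and in KMS12-BM on the horizontal axis for the 31 repair genes, with the 12 whose responses differed between the lines in red. Most red points lie between the dashed line of equal change and the horizontal axis, such as FANCI at -1.20 in JJN3 and -2.55 in KMS12-BM, while ATR at 0.69 in JJN3 and 0.08 in KMS12-BM lies above the dashed line.

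The start levels of these genes differed between the lines in part. XRCC2 had 10.34, 10.58 and 10.27 in JJN3 DMSO arrays, against 11.94, 11.92 and 12.11 in KMS12-BM DMSO arrays, and its amiloride arrays in KMS12-BM, at 10.30 to 10.77, overlapped the JJN3 DMSO arrays. RAD50 had 12.04, 12.07 and 12.00 in JJN3 DMSO arrays, against 10.50, 10.61 and 10.39 in KMS12-BM DMSO arrays. Its amiloride arrays spanned 12.73 to 13.19 in JJN3 and 12.77 to 12.91 in KMS12-BM, so the lines overlapped with amiloride and not with DMSO.

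TG003 raised 7 of the 31 repair genes in KMS12-BM and lowered 2, while in JJN3 it raised 5 and lowered 0. In KMS12-BM 8.3% of all genes were called higher and 6.52% lower, against 22.6% and 6.45% of the repair genes. In JJN3 3.74% of all genes were called higher and 5.64% lower, against 16.1% and 0% of the repair genes, and at an unadjusted p under 0.05 in limma 7 were higher and 5 lower. Among genes above the background reference, 18.5% were called higher in KMS12-BM and 8.47% in JJN3, against 9 and 5 of 29 repair genes, and 15.8% were called lower in KMS12-BM and 13.6% in JJN3, against 2 and 1 of 29. The median change over the repair genes was 0.15 in KMS12-BM and 0.03 in JJN3, against -0.01 and 0.02 over all genes. When each array was centred on its median, the calls became 4 higher and 2 lower in KMS12-BM and 3 higher and 0 lower in JJN3, and with quantile normalization once more 6 higher and 1 lower in JJN3.

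FANCL, lowered by amiloride in both lines, was raised by TG003 in both. It had 8.10, 8.09 and 8.06 in JJN3 TG003 arrays, against 7.36, 7.56 and 7.64 in JJN3 DMSO arrays, a change of 0.56 ± 0.09 (adjusted p = 0.00072). It had 8.77, 8.74 and 8.83 in KMS12-BM TG003 arrays, against 7.67, 7.82 and 7.70 in KMS12-BM DMSO arrays. That change of 1.05 ± 0.09 (adjusted p = 2.1e-06) was the only one of the list past 2-fold with TG003.

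BRCA1, whose protein with BARD1 directs broken ends into recombination, had 10.97, 11.12 and 11.14 in KMS12-BM TG003 arrays, against 10.27, 10.42 and 10.13 in KMS12-BM DMSO arrays, a change of 0.80 ± 0.11 (adjusted p = 0.0001). In JJN3 it had 10.81, 10.92 and 10.58 with TG003, against 10.27, 10.51 and 10.21 with DMSO, a change of 0.44 ± 0.11 (adjusted p = 0.016). Each TG003 array lay above each DMSO array of its line. RAD51C had 10.48, 10.38 and 10.44 in JJN3 TG003 arrays, against 9.95, 10.04 and 9.90 in JJN3 DMSO arrays, a change of 0.47 ± 0.09 (adjusted p = 0.0028). It had 8.81, 8.94 and 8.70 in KMS12-BM TG003 arrays, against 8.14, 8.33 and 8.04 in KMS12-BM DMSO arrays, a change of 0.65 ± 0.09 (adjusted p = 0.00013). RAD51C and FANCL were called with both drugs in both lines. These comparisons share their DMSO arrays, so the values stand side by side and are not independent.

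CHEK1 had 12.67, 12.74 and 12.52 in JJN3 TG003 arrays, against 12.14, 12.18 and 12.03 in JJN3 DMSO arrays, a change of 0.52 ± 0.11 (adjusted p = 0.0048). In KMS12-BM it had 12.54, 12.79 and 12.52 with TG003, against 12.26, 12.49 and 12.12 with DMSO, and the difference of 0.33 ± 0.11 missed the threshold (adjusted p = 0.052). ATR had 9.54, 9.68 and 9.35 in JJN3 TG003 arrays, against 9.17, 9.15 and 8.99 in JJN3 DMSO arrays, a change of 0.42 ± 0.11 (adjusted p = 0.02). Its KMS12-BM values were 8.45, 8.41 and 8.53 with TG003, against 8.69, 8.82 and 8.58 with DMSO, a difference of -0.24 ± 0.11 that did not pass. ATM at 0.04 in JJN3 and -0.04 in KMS12-BM and CHEK2 at -0.07 in JJN3 and 0.03 in KMS12-BM did not pass. The JJN3 calls of BRCA1 and ATR ended without the third JJN3 DMSO array or the first or second JJN3 TG003 array, and that of BRCA1 also without the first JJN3 DMSO array, with adjusted p-values of up to 0.077 for BRCA1 and 0.092 for ATR. Without the third JJN3 DMSO array or the first or second JJN3 TG003 array, 3 calls were left in JJN3.

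PRKDC and TP53BP1 fell with TG003 in KMS12-BM. PRKDC had 12.91, 12.59 and 13.06 with TG003, against 13.84, 13.77 and 13.67 with DMSO, a change of -0.91 ± 0.15 (adjusted p = 0.0005). In JJN3 it had 14.69, 15.01 and 14.46 with TG003, against 14.61, 15.01 and 14.66 with DMSO, overlapping groups whose difference of -0.04 ± 0.15 did not pass. TP53BP1 had 7.31, 7.10 and 7.27 in KMS12-BM TG003 arrays, against 7.81, 7.93 and 7.79 in KMS12-BM DMSO arrays, a change of -0.62 ± 0.08 (adjusted p = 0.0001), opposite to its rise with amiloride. FANCG had 8.02, 7.95 and 8.23 with TG003, against 7.70, 7.53 and 7.75 with DMSO, and rose by 0.41 ± 0.09 (adjusted p = 0.0068). The remaining calls in KMS12-BM were RAD54L at 0.37, RAD50 at 0.29 and NBN at 0.25, with adjusted p-values of 0.044, 0.041 and 0.048, and these ended in 10, 9 and 13 of the 18 fits that left out 1 array. XRCC5, XRCC6 and MSH6 did not pass with TG003 in either line, with differences from -0.17 to 0.12.

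The response to TG003 differed between the lines for 4 of the 31 genes, 2 with a higher and 2 with a lower change in JJN3, against 1.92% and 2.64% of all genes and 4.58% and 6.92% of those above the background reference, where 2 and 3 of 29 repair genes were called. With the replicate number as a block, 2 genes were called higher and 5 lower, 7 in all. The dose was the same in both lines. PRKDC differed by 0.87 ± 0.21 (adjusted p = 0.026), ATR by 0.66 ± 0.15 (adjusted p = 0.021), FANCL by -0.49 ± 0.13 (adjusted p = 0.037) and NBN by -0.41 ± 0.11 (adjusted p = 0.049). NBN differed from DMSO by -0.17 in JJN3, which did not pass (adjusted p = 0.26), and by 0.25 in KMS12-BM. ATR passed in JJN3 and not in KMS12-BM (adjusted p = 0.19). NBN had 11.25, 11.33 and 11.11 in JJN3 TG003 arrays against 11.42, 11.45 and 11.31 in JJN3 DMSO arrays, and 11.39, 11.51 and 11.40 in KMS12-BM TG003 arrays against 11.23, 11.19 and 11.13 in KMS12-BM DMSO arrays. Leaving out any of the 12 DMSO and TG003 arrays except the second KMS12-BM DMSO array left 0 to 2 of these calls in limma, with 0 left without the third JJN3 DMSO array or the second KMS12-BM TG003 array, and 0 were also left with all probe sets tested. At an unadjusted p under 0.05, 3 genes were higher and 7 lower.

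Set directly against TG003 in KMS12-BM, amiloride gave lower values for 18 of the 31 genes and higher values for 6, while 14% of all genes were called lower and 15.8% higher. In JJN3 it gave lower values for 10 and higher values for 5, while 6.41% of all genes were called lower and 10.5% higher. Above the background reference 26.3% of genes were called lower and 35.5% higher in KMS12-BM, against 17 and 6 of 29 repair genes. In JJN3 these shares were 12.5% and 25.8%, against 9 and 6 of 29 repair genes. Of the 10 recombination genes, 8 were lower in KMS12-BM, BRCA1 among them at -0.83 ± 0.11 (adjusted p = 1.2e-05), whose difference between amiloride and DMSO did not pass. FANCL differed by -1.29 ± 0.09 in JJN3 (adjusted p = 2.8e-07) and by -2.53 ± 0.09 in KMS12-BM (adjusted p = 3.9e-11), and the fold in KMS12-BM is at least 3.77 because the amiloride arrays there lay below the background reference. CHEK1 differed by -0.77 ± 0.11 in JJN3 (adjusted p = 0.00012) and by -0.74 ± 0.11 in KMS12-BM (adjusted p = 4e-05). TP53BP1 differed by 1.27 ± 0.08 in KMS12-BM (adjusted p = 8.1e-09). With each array centred on its median the JJN3 calls became 6 lower and 6 higher.

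Without drug, the lines differed in 26 of the 31 repair genes, with 15 lower and 11 higher in JJN3 DMSO arrays than in KMS12-BM DMSO arrays. Of all genes, 22.3% were called lower and 18.9% higher, and of genes above the background reference 41.8% and 34%, against 13 and 11 of 29 repair genes. RAD51C had 9.95, 10.04 and 9.90 in JJN3, against 8.14, 8.33 and 8.04 in KMS12-BM, a difference of 1.79 ± 0.09 or 3.46-fold (adjusted p = 6.3e-11). RAD50 differed by 1.54 ± 0.09 (adjusted p = 5.5e-10), with all JJN3 arrays at 12.00 or above and all KMS12-BM arrays at 10.61 or below. XRCC2 differed by -1.59 ± 0.15, or 3.01-fold lower in JJN3 (adjusted p = 1.5e-07).

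TP53BP1 had 6.73, 6.76 and 6.59 in JJN3 DMSO arrays, all below the background reference, against 7.81, 7.93 and 7.79 in KMS12-BM DMSO arrays, at least 1.97-fold lower in JJN3 (adjusted p = 6e-09). Thus RAD51C was higher in JJN3, while XRCC2 and XRCC3 were lower. The XRCC3 arrays of JJN3 in DMSO all lay below the background reference, so its difference is at least 1.06-fold only. BRIP1 at 1.11 ± 0.13, RAD54L at 1.06 ± 0.12 and PRKDC at 1.0 ± 0.15 were higher in JJN3, and EXO1 at -1.10 ± 0.12, RAD51AP1 at -0.95 ± 0.11, BARD1 at -0.87 ± 0.10 and MSH6 at -0.87 ± 0.08 were lower. PRKDC, for one, had 14.61, 15.01 and 14.66 in JJN3, against 13.84, 13.77 and 13.67 in KMS12-BM. ATR, ATM, XRCC6, NBN and PALB2 were higher in JJN3 by 0.21 to 0.40. The call of NBN ended in 11 of the 18 fits that left out 1 array, that of PALB2 without the third KMS12-BM DMSO array and that of FANCE without the third JJN3 DMSO array. The call of XRCC6 ended without the first or second JJN3 DMSO array or the third KMS12-BM DMSO array, and that of ATM without the second or the third JJN3 DMSO array or the first or the third KMS12-BM DMSO array. BRCA1, CHEK1, FANCI, FANCL and XRCC5 did not pass, with differences from -0.21 to 0.07.

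**Figure D4:**
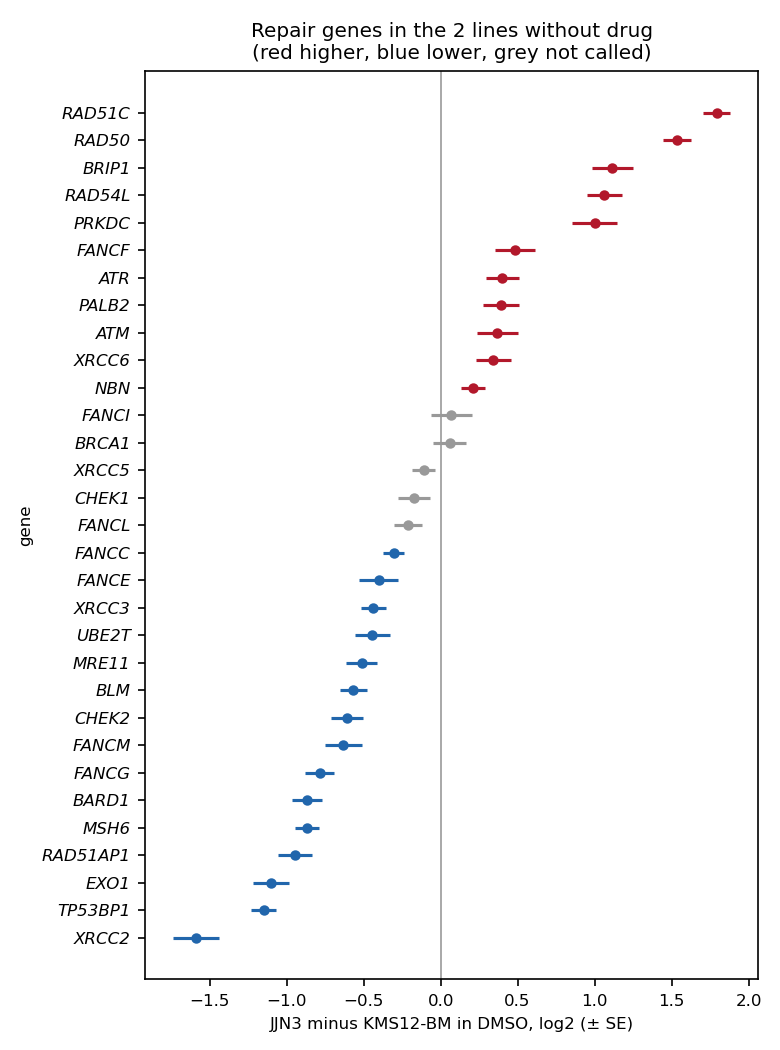
Difference between JJN3 and KMS12-BM in DMSO (log2, points with SE) for the 31 repair genes, ordered by size, with red for higher and blue for lower in JJN3 and grey for no call. RAD51C at 1.79 and RAD50 at 1.54 stand at the top and XRCC2 at -1.59 at the bottom.

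Of the 31 genes, 6 had no call in any of the 4 comparisons of a drug with DMSO, namely BARD1, XRCC3, BLM, FANCE, MRE11 and XRCC5. The other 25 were called in at least 1 of them.

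Other genes of the same pathways were read from the same fits. For all genes, 13.6% were called lower and 17% higher with amiloride in KMS12-BM, and 6.12% and 8.65% in JJN3. Above the background reference these shares were 25.5% and 37.2% in KMS12-BM and 14.3% and 22.3% in JJN3. Of 25 further recombination and Fanconi genes, amiloride lowered 8 and raised 10 in KMS12-BM and lowered 5 and raised 3 in JJN3. Their median change was 0.11 in KMS12-BM and -0.06 in JJN3, against -0.21 and -0.09 over the 31 repair genes. DNA2, a nuclease of end resection, changed by -0.84 ± 0.11 in JJN3 and -1.89 ± 0.11 in KMS12-BM, and ABRAXAS1, of a BRCA1 complex, by -0.84 ± 0.12 in JJN3 and -1.35 ± 0.12 in KMS12-BM. WDR48, a partner of the enzyme that removes ubiquitin from the FANCI and FANCD2 pair, rose by 2.05 ± 0.09 in KMS12-BM. Of 11 further end-joining genes, 3 were lower and 3 higher in KMS12-BM, and LIG4, the ligase that closes the break, was at least 1.14-fold higher in JJN3 and at least 1.64-fold higher in KMS12-BM, with its DMSO arrays below the background reference.

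Excision repair genes fell more often than they rose with amiloride in KMS12-BM, 15 against 3 of 22 with a median of -0.33, where 13.6% of all genes were called lower and 17% higher. For 4 of the 15 both group means lay below the background reference, which leaves 11 lower and 3 higher of the 16 genes above it in either group. JJN3 had 4 lower and 4 higher, where 6.12% of all genes were called lower and 8.65% higher. DDB1, which senses ultraviolet lesions with DDB2, changed by -1.33 ± 0.07 in KMS12-BM (adjusted p = 9.7e-10) and DDB2 by -1.08 ± 0.12. The glycosylase OGG1 was also called lower, but all its amiloride and DMSO arrays in KMS12-BM lay below the background reference, so no fold is given. DDB2 changed by -0.91 ± 0.12 in JJN3 (adjusted p = 6.9e-05). Of 16 further checkpoint and mediator genes, 6 were lower and 3 higher in KMS12-BM and 3 lower and 2 higher in JJN3. TIMELESS, a replication fork protein, changed by -1.02 ± 0.13 in JJN3 and -2.25 ± 0.13 in KMS12-BM with amiloride, and its partner TIPIN by 0.55 ± 0.13 in JJN3 and -1.25 ± 0.13 in KMS12-BM. With TG003, TIMELESS rose by 0.60 ± 0.13 in JJN3 and 1.0 ± 0.13 in KMS12-BM.

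Of 15 measured target genes of p53, amiloride raised 5 and lowered 1 in KMS12-BM and raised 2 and lowered 1 in JJN3. For all genes the shares called were 17% higher and 13.6% lower in KMS12-BM, and 8.65% and 6.12% in JJN3. Above the background reference 37.2% of genes were called higher in KMS12-BM, against 5 of 10 p53 targets above it in either group. In JJN3 these were 22.3% and 1 of 9. For the fall in KMS12-BM and 1 of the rises in JJN3, both group means lay below the background reference. TIGAR, which limits glycolysis, was at least 1.02-fold higher in JJN3 and at least 3.28-fold higher in KMS12-BM, with its DMSO arrays below the reference. In JJN3, 2 of its 3 amiloride arrays also lay at or below the reference. Of the 5 rises in KMS12-BM, 4 had a difference of means past 2-fold, though not all reach it when bounded by the reference. CDKN1A at -0.16 in JJN3 and 0.04 in KMS12-BM and MDM2 at -0.19 in both did not pass. All DMSO arrays of CDKN1A lay at or below the reference in both lines, which limits what its lack of a call can show. The kinase genes CDK12 and CDK13 and the gene of their cyclin, CCNK, are known to sustain transcription of long repair genes. All 3 rose with amiloride in both lines, CDK13 by 0.90 ± 0.10 in JJN3 (adjusted p = 2.4e-05) and by 1.38 ± 0.10 in KMS12-BM (adjusted p = 2.9e-08). They lay above the background reference, where 22.3% of genes were called higher in JJN3 and 37.2% in KMS12-BM. With TG003, 2 of the 3 rose in JJN3 and 1 in KMS12-BM, where 3.74% and 8.3% of all genes were called higher.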

How the data were processed

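The authors deposited log2 expression values that, per the submitters' processing notes, come from RMA, which corrects background, quantile normalizes arrays and summarises probe sets. For both the RMA version and the genome build, the sources used here give nothing. The sample labels name total RNA, while the series text names poly A+ RNA. Of 70523 probe sets, 23781 carry 1 gene symbol in the annotation used and 1543 carry several and were not named. The probe set with the highest mean over the 18 arrays stood for each of 22465 genes, and each measured repair gene had 1. Symbols needed 0 updates. For arrays, their number limits the precision.

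All genes were fitted with limma 3.58.1 in R 4.3.3, with 6 group means, 9 contrasts, two-sided tests and Benjamini-Hochberg adjustment at 0.05, after a test on simulated data. Python 3.11.15 with pandas 2.3.3, numpy 2.4.6, scipy 1.17.1 and matplotlib 3.10.9 made tables and figures. A fold against a group whose 3 arrays all lay at or below the background reference is a bound against that reference (95th percentile of 92 ERCC probe sets), which may not measure background alone. The members and lists were chosen with earlier results of these data known. Values by array are given for up to 6 genes per drug comparison and up to 4 per other comparison with the largest called change, and always for BRCA1, ATM, ATR, CHEK1, CHEK2, PRKDC, XRCC5, XRCC6 and MSH6; EXO1 and RAD51C values in further comparisons follow from this. Of other lists, up to 3 called genes are named per drug comparison; TOP2A, MKI67, CDKN1A, MDM2 and TIPIN in JJN3 were added after their values were seen. Counts among genes above the background reference come from a fit on those 8536 genes.

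Groups follow the titles, whose serial codes, in their order, give the replicate numbers. As a check of pairing, deviations from group means correlated above 0.1 at each of the 3 numbers in 4 of 15 group pairs. Both DMSO and TG003 pairs and the DMSO groups of the lines were among them, whereas amiloride with its own DMSO was not. Over all groups, 15 arrays were nearest to arrays of their own number. The serial codes of each number also form an unbroken run across all groups. Pairing by number is thus not limited to DMSO with TG003, and the main fits did not use the number as a block. Alternatives were a replicate block, 2 other scalings, 3 other gene sets, fits to the compared groups alone, another variance model and leaving out each array.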

Additional observations from a re-analysis of the deposited data

Results flagged for a closer look

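In all, 16 differences between the lines in drug response passed an interaction term in limma, which is what singled them out. Each is the change in JJN3 minus that in KMS12-BM on the log2 scale. With amiloride, whose dose differed between the lines, the difference was 2.16 for BRIP1, 1.83 for PALB2, 1.48 for XRCC2, 1.36 for FANCI, 0.93 for NBN, 0.75 for FANCL, 0.63 for EXO1, 0.61 for ATR and 0.47 for FANCC. It was -1.46 for RAD50, -0.54 for TP53BP1 and -0.44 for RAD51C. FANCC lay below the background reference in every group, BRIP1 and FANCL did so with amiloride in KMS12-BM, and the means of TP53BP1 did so in JJN3 with amiloride (6.80) and DMSO (6.69). With amiloride in JJN3, the mean of FANCL (6.79) and 2 of its 3 arrays also lay below the reference. The RAD51C difference (adjusted p = 0.02) ended with arrays centred on their median and without any one of 4 single arrays, namely the second JJN3 DMSO array, the first JJN3 amiloride array, the third KMS12-BM DMSO array and the second KMS12-BM amiloride array.

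With TG003 at 1 dose, the difference was 0.87 for PRKDC, 0.66 for ATR, -0.49 for FANCL and -0.41 for NBN, and each of these 4 calls ended under at least 4 of the 26 other settings.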

How the results depend on the processing

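Each of the 9 comparisons was refitted under 8 alternatives and with each of 18 arrays left out. Of 130 called values of single repair genes, 101 passed wherever they were tested, 29 were lost in at least 1 setting, and 0 changed sign. With quantile normalization once more, the median change of the repair genes was -0.32 for amiloride against DMSO in KMS12-BM and -0.28 for amiloride against TG003 in JJN3. The 5 calls for TG003 in JJN3 became 3 with median-centred arrays and 3 with the compared groups alone. The 4 differences in TG003 response became 1 with arrays centred, 0 with all probe sets tested and 2 with trend and robust variance. Quantile normalization gave 1 lower and 3 higher there. The cause was not tested. With the replicate block, the 4 became 7 (5 lower, 2 higher). The arrays bore out this pairing at each number for DMSO with TG003, and 15 arrays were nearest to their own number. The block moved no other count by over 1.5 times.

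Leaving out single arrays gave 21 to 22 calls for amiloride in KMS12-BM, 11 to 14 for amiloride in JJN3, 6 to 10 for TG003 in KMS12-BM, 3 to 6 for TG003 in JJN3, 22 to 26 between the lines in DMSO, 11 to 15 for the difference in amiloride response, 0 to 5 for the difference in TG003 response, 21 to 24 for amiloride against TG003 in KMS12-BM and 11 to 15 for the same in JJN3. Genes near the background reference, such as FANCC, FANCE and FANCL, are limited by signal over background.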

Other observations

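Genes that copy past damaged bases were read beside the repair genes. Of 9 translesion synthesis genes, amiloride lowered 3 in JJN3, and lowered 3 and raised 4 in KMS12-BM. For all genes these shares were 6.12% in JJN3, and 13.6% and 17% in KMS12-BM. Above the background reference they were 14.3% in JJN3, and 25.5% and 37.2% in KMS12-BM. POLH, the polymerase that copies past ultraviolet lesions, changed by -1.34 ± 0.13 in JJN3 (adjusted p = 1.1e-05 in limma) and by -0.62 ± 0.13 in KMS12-BM (adjusted p = 0.0016 in limma). RAD18, which marks the replication clamp for these polymerases, changed by -0.96 ± 0.11 in KMS12-BM (adjusted p = 3.3e-06 in limma).

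TG003 lowered 5 of 10 plasma cell markers in JJN3 and 6 of 10 in KMS12-BM, where 5.64% and 6.52% of all genes were called lower. In each line 7 of the 10 markers lay above the background reference in either group. Among genes above it, 13.6% were called lower in JJN3 and 15.8% in KMS12-BM. TNFRSF17, the surface receptor BCMA, was at least 3.50-fold lower in JJN3 (adjusted p = 9.2e-05), where its TG003 arrays lay below the background reference, and changed by -1.70 ± 0.26 in KMS12-BM (adjusted p = 0.00032). IRF4, a transcription factor that plasma cells need, changed by -0.78 ± 0.15 in JJN3 (adjusted p = 0.0033) and by -0.99 ± 0.15 in KMS12-BM (adjusted p = 0.00033). With amiloride 1 of the 10 was lower in JJN3, and 2 were lower and 2 higher in KMS12-BM. For all genes these shares were 6.12% in JJN3, and 13.6% and 17% in KMS12-BM.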
